A study of Rattus norvegicus with 16 samples.

Results

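The enzymes of the urea cycle and of the hepatic handling of nitrogen were examined in liver RNA of rats fed 3 ligands of the retinoid X receptor. A list of 10 genes defined the set: Cps1, Otc, Ass1, Asl, Arg1, Gls2, Glul, Glud1, Asns and Aass. A gene counted as measured where the platform annotation paired at least 1 probe set with its symbol alone, and 9 of the 10 met this, with 154 probe sets among the 177688 that carried exactly 1 symbol. Glul, the glutamine synthetase of the hepatocytes around the central vein, had no such probe set, and its RNA was not analysed here. The 9 genes belong to 14839 named genes, of which 12156 were bright enough to test.

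All samples were livers taken at 5 weeks of age from female rats of the Sprague-Dawley strain, hybridised to whole-transcript exon arrays with 1 biotin-labelled sample each. The UAB30 group received 200 ppm of UAB30, the MeUAB30 group 200 ppm of 4-methyl-UAB30, and the Targretin group 150 ppm of Targretin, the trade name of bexarotene, each in Teklad mash (4%) for 7 days. The Control group received the same mash without a compound, for a period that the labels do not state. Each group had 4 arrays; whether they stand for separate animals is not stated, so p-values measure the spread between arrays, part of which may be technical. UAB30 and MeUAB30 were fed at a matched dose and differ by a methyl group, whereas the dose of Targretin was lower.

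The urea cycle turns ammonia, which is toxic, into urea, and it runs mainly in the hepatocytes around the portal vein. Carbamoyl phosphate synthetase (Cps1) and ornithine transcarbamylase (Otc) work in the mitochondrion, and argininosuccinate synthetase (Ass1), argininosuccinate lyase (Asl) and arginase (Arg1) complete the cycle in the cytosol. Liver glutaminase (Gls2) and glutamate dehydrogenase (Glud1) release ammonia in the mitochondrion. Asparagine synthetase (Asns) moves an amide group from glutamine to aspartate, and alpha-aminoadipic semialdehyde synthase (Aass) starts the breakdown of lysine. The retinoid X receptor, the target of all 3 compounds, is the partner with which many nuclear receptors of the liver bind DNA.

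The DNA windows at the starts of 3 genes are shown because these genes had the smallest adjusted p-values of the set: Cps1 among those that fell and Gls2 among those that rose with MeUAB30, and Aass with Targretin. Each window runs from 250 bases before to 50 after the annotated start, read 5′ to 3′ on the gene's strand, and was taken from RefSeq on the GRCr8 build. Capitals mark matches, on either strand, to 5 motifs: the nuclear receptor half-site AGGTCA, the direct repeat of 2 half-sites with 1 base between them, the HNF4 motif CAAAGTCCA, the core of the amino acid response element (TGATGNAA) and the CCAAT box. The Cps1 window lies at chr9:76063613-76063912 on the plus strand, that of Gls2 (the first of its 2 annotated starts) at chr7:1201629-1201928 on the plus strand, and that of Aass at chr4:52628762-52629061 on the minus strand.
Cps1: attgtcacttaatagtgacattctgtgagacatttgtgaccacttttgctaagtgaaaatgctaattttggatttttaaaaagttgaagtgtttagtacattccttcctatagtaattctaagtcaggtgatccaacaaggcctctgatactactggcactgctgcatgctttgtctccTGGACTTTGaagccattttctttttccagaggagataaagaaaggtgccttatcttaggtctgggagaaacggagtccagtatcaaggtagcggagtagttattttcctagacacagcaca
Gls2: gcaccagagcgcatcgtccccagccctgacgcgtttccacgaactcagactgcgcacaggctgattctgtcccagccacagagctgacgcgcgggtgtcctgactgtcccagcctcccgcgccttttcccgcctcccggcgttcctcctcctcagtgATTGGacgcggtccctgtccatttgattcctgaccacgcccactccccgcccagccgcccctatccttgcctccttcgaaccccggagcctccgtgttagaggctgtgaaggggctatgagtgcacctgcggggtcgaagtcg
Aass: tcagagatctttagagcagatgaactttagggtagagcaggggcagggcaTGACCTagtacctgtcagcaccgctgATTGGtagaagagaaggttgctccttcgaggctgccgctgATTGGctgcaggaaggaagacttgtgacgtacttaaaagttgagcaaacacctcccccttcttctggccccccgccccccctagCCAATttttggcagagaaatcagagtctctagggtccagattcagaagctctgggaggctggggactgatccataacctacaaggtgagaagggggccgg

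In Cps1 the capitals mark the HNF4 motif on the opposite strand at -71 to -63 from the start, a motif held by 0.391% of 33469 annotated windows of this length. In Gls2 they mark a CCAAT box at -93 to -89, held by 37.5% of the windows. Aass held 1 half-site, at -200 to -195, against 16.2% of windows with at least 1, and 3 CCAAT boxes. No half-site repeat (0.0538% of windows) and no amino acid response core (3.98%) stood in any of the 11 windows found for 9 of the listed genes. These 9 are not the 9 measured genes: they include Glul and leave out Arg1, for which no window was found. Half-site matches overlap those of the repeat by construction. A match is a run of letters and no measured binding, and the arrays carried no measurement of binding.

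Hybridisation was alike across arrays, with median intensities between 22.2 and 23.8 and correlations between arrays of 0.894 to 0.983. The leading principal component held 31.7% of the variance. On it, array 3 of UAB30, array 1 of MeUAB30, array 2 of Targretin and array 3 of Control lay highest in their groups. These are the 4 arrays said to have stood apart, and each called change of a member is also given without them. The MeUAB30 arrays lay at 10, -3.2, -12.9 and -23.7, so array 4 of that diet was far out as well. The 4 were picked from these same data, and leaving them out can narrow the spread. The values without them are therefore no independent check. Albumin (Alb) and transthyretin (Ttr), the defining hepatocyte genes that were measured, averaged 13.89 ± 0.08 and 13.57 ± 0.06 on the log2 scale with MeUAB30, against 14.08 ± 0.05 and 13.64 ± 0.17 in Control (SD, n = 4). Neither passed the test against Control with any compound, with limma adjusted p-values of 0.263 or more. Because whole liver was measured, fewer cells of a type and less RNA per cell cannot be told apart.

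Gene values are given as log2 of the intensity plus 1, with 1 value per gene and array, and compare a gene with itself across diets. A change was called where the adjusted p of the limma fit to all 16 arrays was under 0.05, adjusted by Benjamini-Hochberg over all 12156 genes. With UAB30 against Control, limma called 0 of the 9 genes, beside 0.0823% of all genes (0.0740% higher and 0.00823% lower). An unadjusted limma p under 0.05 was reached by 1 of the 9, against 952 of all 12156 genes. It was reached by 4 of the 9 with MeUAB30, against 2818 of all genes, and by 5 of the 9 with Targretin, against 1326. MeUAB30 changed 4 of the 9, Gls2 and Asns upward and Cps1 and Asl downward, beside 9.89% of all genes (7.88% higher and 2.01% lower). Asns counts here in part through a probe set that was bright enough only through its levels in the compound diets. The median change of the 9 was 0.06 on the log2 scale with MeUAB30, as it was over all genes. Targretin changed 1 of the 9, Aass, upward, beside 2.18% of all genes (1.51% higher and 0.666% lower), and the median of the 9 was 0.25 against -0.01 over all genes. Increases made up 69.4% of all calls with Targretin, but 30.6% with the intensity range of the arrays as covariate, where Aass and Arg1 were called upward and Asl downward. The 3 comparisons share the Control arrays and are therefore not independent.

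**Figure D1:**
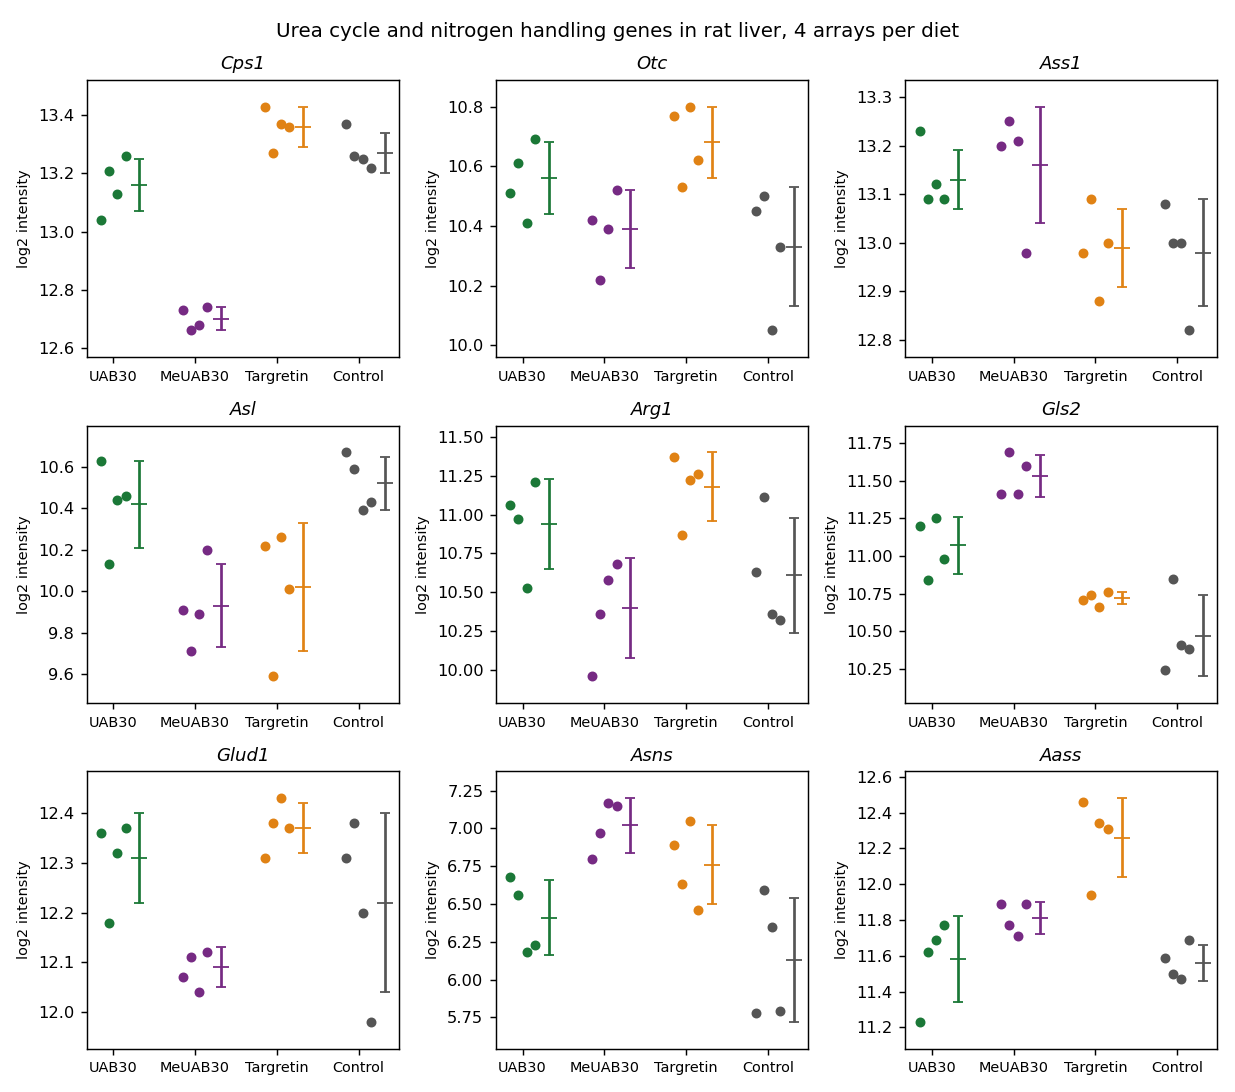
Log2(intensity + 1) of each of the 9 measured genes (1 panel per gene) on the 4 arrays of each diet, UAB30, MeUAB30, Targretin and Control from left to right; points are arrays and bars the group mean with its SD. Cps1 lies lowest with MeUAB30 (12.66 to 12.74) and Gls2 highest (11.41 to 11.69), and Aass lies highest with Targretin (11.94 to 12.46).

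Cps1, which makes carbamoyl phosphate from ammonia and sets the pace of the cycle, was lower with MeUAB30 than in every other diet. Its log2 values were 13.04, 13.21, 13.13 and 13.26 with UAB30. They were 12.73, 12.66, 12.68 and 12.74 with MeUAB30. They were 13.43, 13.27, 13.37 and 13.36 with Targretin, against 13.37, 13.26, 13.25 and 13.22 in Control. All 4 MeUAB30 arrays lay below every array of the other diets, among which UAB30 and Targretin did not overlap and both overlapped Control. Cps1 fell by 0.57 on the log2 scale with MeUAB30 against Control (SE 0.10, 95% interval -0.78 to -0.37, limma adjusted p = 0.00136), which is 1.49-fold lower. Without the 4 arrays that stood apart the change was -0.59 (adjusted p = 0.00162). UAB30 and Targretin gave -0.11 and 0.08 against Control, with adjusted p-values of 0.835 and 0.879.

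All 38 Cps1 probe sets were lower with MeUAB30 than in Control, by 0.13 to 1.23 on the log2 scale. The size of the difference varied with brightness: the median was -0.40 over the 19 brightest probe sets and -0.71 over the 19 dimmest. The part of signal saturation in this was not tested. With Targretin, the 38 probe sets ranged from -0.07 to 0.18 around their Control values.

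Otc, which joins carbamoyl phosphate to ornithine, passed the test in no diet. On the log2 scale it read 10.51, 10.61, 10.41 and 10.69 with UAB30 and 10.42, 10.22, 10.39 and 10.52 with MeUAB30. They were 10.77, 10.53, 10.80 and 10.62 with Targretin, against 10.45, 10.50, 10.05 and 10.33 in Control. The Targretin arrays all lay above the Control arrays, by a mean difference of 0.35 (95% interval 0.09 to 0.61, limma adjusted p = 0.216), and all 11 probe sets were higher by 0.18 to 0.51. The differences from Control were 0.22 with UAB30 and 0.06 with MeUAB30, and in both the arrays overlapped those of Control. In Targretin against MeUAB30 Otc was 0.29 higher (95% interval 0.03 to 0.55, adjusted p = 0.195). There it passed with array weights (0.36, adjusted p = 0.0131) and with intensity range as covariate (0.31, adjusted p = 0.0253).

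Ass1, which condenses citrulline with aspartate, varied least among the urea cycle enzymes, with means 0.19 apart between the highest and the lowest diet. The arrays gave 13.23, 13.09, 13.12 and 13.09 with UAB30 and 13.20, 13.25, 13.21 and 12.98 with MeUAB30. They were 12.98, 13.09, 12.88 and 13.00 with Targretin, against 13.08, 13.00, 13.00 and 12.82 in Control. The UAB30 arrays lay just above all 4 Control arrays, with a mean difference of 0.16 (limma adjusted p = 0.779), and this was the only 1 of the 9 genes that separated from Control with UAB30, where 3.40% of all genes did.

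Asl, which splits argininosuccinate into arginine and fumarate, fell with MeUAB30. Its log2 values were 10.63, 10.13, 10.44 and 10.46 with UAB30. They were 9.91, 9.71, 9.89 and 10.20 with MeUAB30. They were 10.22, 9.59, 10.26 and 10.01 with Targretin, against 10.67, 10.59, 10.39 and 10.43 in Control. Both the MeUAB30 and the Targretin arrays lay wholly below the Control arrays, whereas those of UAB30 overlapped them. The change was -0.59 with MeUAB30 (SE 0.16, 95% interval -0.92 to -0.26, limma adjusted p = 0.0229), or 1.51-fold lower. It was -0.50 with Targretin (95% interval -0.83 to -0.17, adjusted p = 0.14), which did not pass, but did after quantile normalization (-0.54, adjusted p = 0.0446) and with intensity range as covariate (-0.60, adjusted p = 0.0027). All 21 probe sets were lower in both diets, by 0.07 to 1.02 with MeUAB30 and by 0.20 to 0.78 with Targretin. The MeUAB30 call was lost on leaving out MeUAB30 array 2, MeUAB30 array 3 or Control array 1, with adjusted p-values of 0.0636 to 0.0814, while it was -0.63 (adjusted p = 0.0129) without the 4 arrays that stood apart.

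Arg1, which releases urea from arginine, passed against Control in no diet, and its difference from Control had opposite signs with MeUAB30 and Targretin. Its log2 values were 11.06, 10.97, 10.53 and 11.21 with UAB30. They were 9.96, 10.36, 10.58 and 10.68 with MeUAB30. They were 11.37, 10.87, 11.22 and 11.26 with Targretin, against 10.63, 11.11, 10.36 and 10.32 in Control. Control array 2 lay within the Targretin range and the 3 others below it. The differences from Control were 0.33 with UAB30 (limma adjusted p = 0.736), -0.21 with MeUAB30 (adjusted p = 0.595) and 0.57 with Targretin (95% interval 0.15 to 0.99, adjusted p = 0.201). The MeUAB30 value was -0.07 without MeUAB30 array 1 and -0.04 without Control array 2, and with intensity range as covariate it passed at -0.41 (adjusted p = 0.0342). With that covariate Targretin passed at 0.42 (adjusted p = 0.0497), and with array weights at 0.63 (adjusted p = 0.0277). All 11 probe sets followed these signs, from 0.25 to 0.52 with UAB30, from -0.52 to -0.07 with MeUAB30 and from 0.28 to 0.79 with Targretin.

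**Figure D2:**
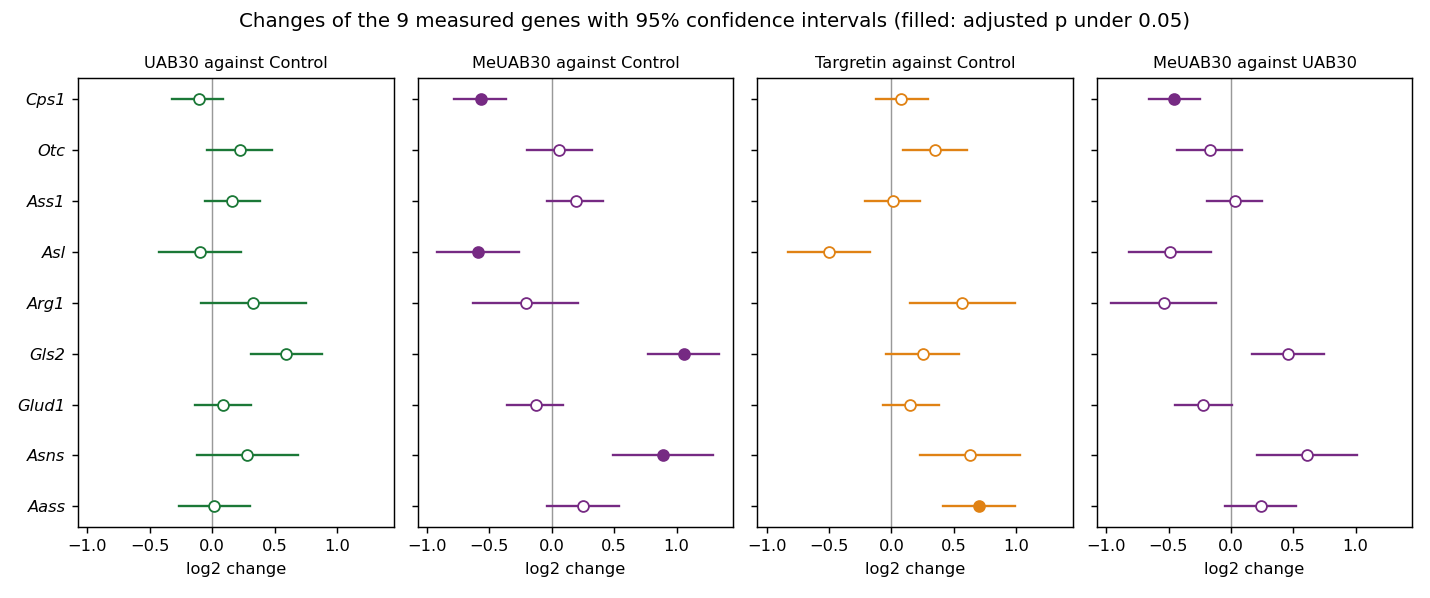
Log2 change of each gene against Control with its 95% interval from the limma fit, for UAB30, MeUAB30 and Targretin, and for MeUAB30 against UAB30; filled points passed an adjusted p of 0.05. Gls2 at 1.06 and Asns at 0.89 lie highest with MeUAB30, Cps1 at -0.57 and Asl at -0.59 lowest, and Aass at 0.70 is the filled point with Targretin.

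Gls2, which frees ammonia from glutamine beside Cps1 in the mitochondrion, showed the largest change against Control of the 9 genes. Its log2 values were 11.20, 10.84, 11.25 and 10.98 with UAB30. They were 11.41, 11.69, 11.41 and 11.60 with MeUAB30. They were 10.71, 10.74, 10.66 and 10.76 with Targretin, against 10.24, 10.85, 10.41 and 10.38 in Control. The MeUAB30 arrays lay above all others, and among the UAB30 arrays array 2 fell just under the highest Control array, array 2. Gls2 rose 2.08-fold with MeUAB30 against Control, a log2 change of 1.06 (95% interval 0.77 to 1.34, limma adjusted p = 0.000147), and 1.07 (adjusted p = 0.000942) without the 4 arrays that stood apart. The change with UAB30 was 0.59, or 1.51-fold (SE 0.14, 95% interval 0.31 to 0.88), and did not pass over all genes (adjusted p = 0.177). It passed without Control array 2, at 0.72 (adjusted p = 0.0214), and with intensity range as covariate, at 0.58 (adjusted p = 0.0442). With Targretin it was 0.25 (adjusted p = 0.572).

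Of the 19 Gls2 probe sets, 18 were higher with MeUAB30 than in Control, with a median of 1.05 and a highest value of 1.49. The exception, at -0.10, was the dimmest of the 19, with a mean level of 6.95 over all arrays. All 19 were higher with UAB30, by 0.18 to 0.87.

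Glud1, which links glutamate to ammonia and 2-oxoglutarate, passed in no comparison of the fit without weights or covariate. Log2 values were 12.36, 12.18, 12.32 and 12.37 with UAB30 and 12.07, 12.11, 12.04 and 12.12 with MeUAB30. They were 12.31, 12.38, 12.43 and 12.37 with Targretin, against 12.31, 12.38, 12.20 and 11.98 in Control. Control array 4 lay below every MeUAB30 array and the 3 other Control arrays above them, so these groups overlapped. The differences from Control were 0.09, -0.13 and 0.15 with UAB30, MeUAB30 and Targretin, with limma adjusted p-values of 0.523 or more. Its 15 probe sets disagreed in sign with MeUAB30, from -0.80 to 0.42.

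Asns, a classic target of the amino acid response, was dim, and only 2 of its 13 probe sets entered its value. The 4 arrays read 6.68, 6.56, 6.18 and 6.23 with UAB30. They were 6.80, 6.97, 7.17 and 7.15 with MeUAB30. They were 6.89, 6.63, 7.05 and 6.46 with Targretin, against 5.78, 6.59, 6.35 and 5.79 in Control. The MeUAB30 arrays lay above every Control array, and the Control mean of 6.13 ± 0.41 stood near the brightness threshold of 6.01. Asns rose 1.86-fold with MeUAB30, a log2 change of 0.89 (SE 0.19, 95% interval 0.49 to 1.29, limma adjusted p = 0.00635), and 1.04 (adjusted p = 0.00617) without the 4 arrays that stood apart. The 2 kept probe sets, at mean levels of 6.69 and 6.47, were unequal: 1.37 and 0.41 with MeUAB30, and 1.24 and 0.01 with Targretin. The filter used the mean over all diets. The brighter probe set was above Control by 0.64 with UAB30, 1.37 with MeUAB30 and 1.24 with Targretin, and its Control mean lay below the threshold. It was therefore kept only through its levels in the compound diets. With no brightness filter the MeUAB30 change was 0.73 (adjusted p = 0.0129). The log2 scale with 1 added shrinks the change of so dim a gene. With Targretin the change was 0.63 (adjusted p = 0.117), and 0.78 (adjusted p = 0.0358) without Control array 2 or 0.79 (adjusted p = 0.0141) with array weights, and with UAB30 it was 0.28 (adjusted p = 0.778). Counting the dim probe sets too, 13 of 13 were higher with MeUAB30, by 0.21 to 1.37, and 13 of 13 with Targretin, by 0.01 to 1.24. With UAB30, 6 were higher and 6 lower.

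Aass, the first enzyme of lysine breakdown, rose with Targretin. Its log2 values were 11.23, 11.62, 11.69 and 11.77 with UAB30. They were 11.89, 11.77, 11.71 and 11.89 with MeUAB30. They were 12.46, 11.94, 12.34 and 12.31 with Targretin, against 11.59, 11.50, 11.47 and 11.69 in Control. The Targretin arrays lay above all others, and those of MeUAB30 lay just above Control. Against Control the Targretin change was 0.70 (SE 0.14, 95% interval 0.41 to 0.99, limma adjusted p = 0.00762), or 1.63-fold, and all 8 probe sets were higher by 0.32 to 1.02. It was 0.78 (adjusted p = 0.00594) without the 4 arrays that stood apart, but fitted on the Targretin and Control arrays alone its adjusted p was 0.0622. The differences were 0.01 with UAB30 (adjusted p = 0.987) and 0.25 with MeUAB30 (adjusted p = 0.292).

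**Figure D3:**
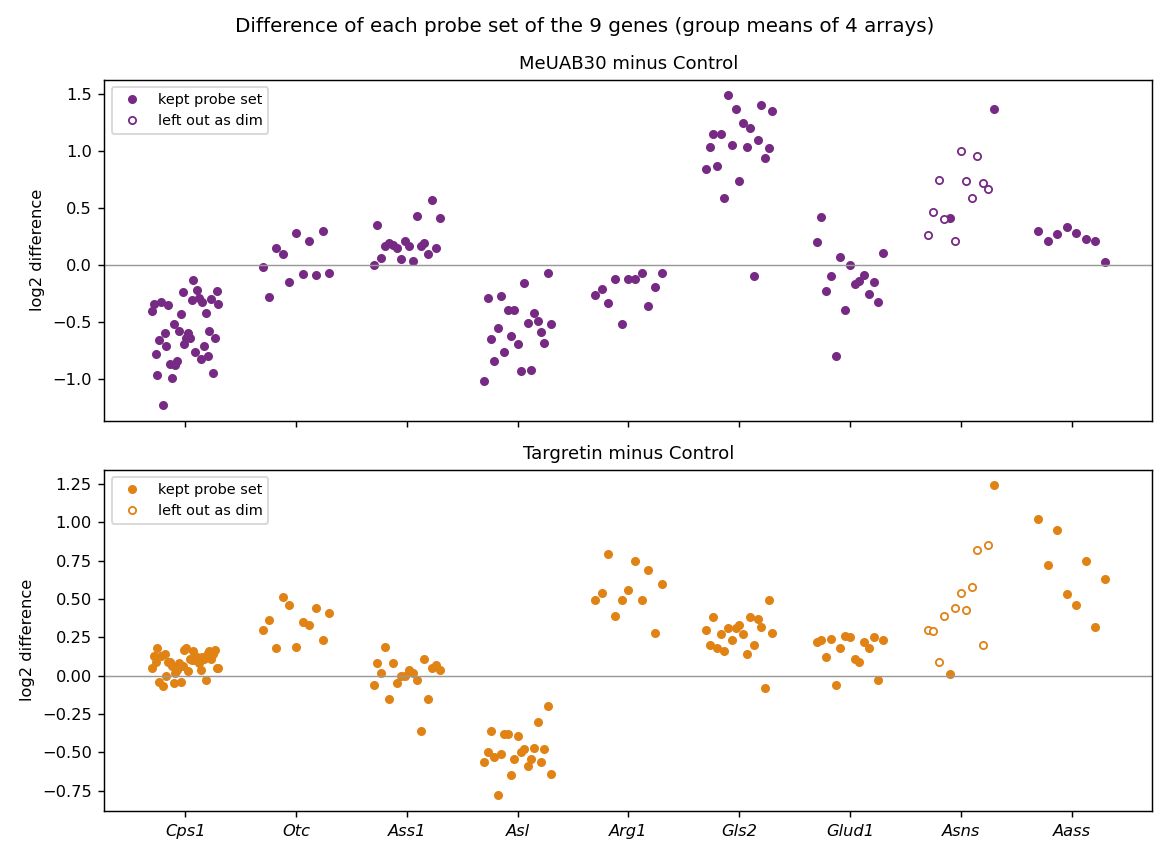
Log2 difference from Control (group means of 4 arrays) of each probe set of the 9 genes, with MeUAB30 above and Targretin below; filled points were kept and open points, all of Asns, were left out as dim. All 38 points of Cps1 and all 21 of Asl lie below 0 with MeUAB30, 18 of 19 of Gls2 above it, and all 8 of Aass lie above it with Targretin.

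The matched pair of analogs, MeUAB30 and UAB30, differed in 1 of the 9 genes, where 1.39% of all genes were called (0.699% higher and 0.691% lower). Cps1 was lower with MeUAB30 by 0.46 on the log2 scale (95% interval -0.66 to -0.25, limma adjusted p = 0.022), and all 38 of its probe sets were lower, by 0.17 to 0.82. That call was lost on leaving out UAB30 array 2, 3 or 4 or MeUAB30 array 2 or 3 (adjusted p from 0.0633 to 0.102), and it was -0.48 (adjusted p = 0.0168) without the 4 arrays that stood apart. The other 8 genes did not pass, and 4 of the 9, Cps1 among them, had arrays of the analogs that did not overlap, against 8.31% of all genes. Gls2 was 0.46 higher with MeUAB30 (0.17 to 0.75, adjusted p = 0.13) and Asns 0.61 higher (0.21 to 1.01, adjusted p = 0.153), each with all MeUAB30 arrays on top. Glud1 differed by -0.22 (-0.45 to 0.01, adjusted p = 0.461), with its MeUAB30 arrays all below those of UAB30 and all 15 probe sets lower. Asl differed by -0.49 (-0.82 to -0.16, adjusted p = 0.171) and Arg1 by -0.54 (-0.96 to -0.12, adjusted p = 0.257), with overlapping arrays. Those 95% intervals of Gls2, Asns, Asl and Arg1 leave out 0, so a missed threshold over all genes does not show that the analogs act alike there. The intervals of Otc (-0.43 to 0.09), Ass1 (-0.19 to 0.25) and Aass (-0.05 to 0.52) held 0. The 6 contrasts among the 4 diets were each adjusted over all genes, and not over the contrasts.

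The Targretin diet held less compound than the other 2, so its values are set beside theirs without a reading of potency. Against UAB30, limma called 1 of the 9 genes, Aass (0.69 higher, adjusted p = 0.0125), beside 1.23% of all genes (0.625% higher and 0.609% lower). Leaving out UAB30 array 1 or Targretin array 1 took the adjusted p to 0.0526 or more, up to 0.0547, and a fit of these 2 groups alone gave 0.105. Without the 4 arrays that stood apart it was 0.83 (adjusted p = 0.00532). Against MeUAB30, 3 of the 9 were called, beside 5.63% of all genes (1.72% higher and 3.91% lower). Cps1 was 0.66 higher with Targretin (0.45 to 0.86, adjusted p = 0.000495), Arg1 0.78 higher (0.36 to 1.20, adjusted p = 0.0269, 1.72-fold), and Gls2 lower at -0.81 (-1.10 to -0.52, adjusted p = 0.00165). Without the 4 arrays that stood apart Cps1 was at 0.69 (adjusted p = 0.000761) and Gls2 at -0.85 (adjusted p = 0.00508). The Arg1 call was lost without MeUAB30 array 1 or 2 or Targretin array 1, 3 or 4 (adjusted p from 0.0623 to 0.0773), and was 0.74 (adjusted p = 0.0173) without the 4 arrays that stood apart. Aass missed at 0.45 (adjusted p = 0.063), with all Targretin arrays above those of MeUAB30, and passed without those 4 arrays at 0.58 (adjusted p = 0.0163). In 6 of the 9 genes the Targretin and MeUAB30 arrays did not overlap, against 13.1% of all genes, and in 3 of the 9 those of Targretin and UAB30, against 6.75%. The corresponding counts against Control were 5 of 9 with MeUAB30 (14.4% of all genes) and 3 of 9 with Targretin (5.33%).

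In the order of the diets, neighbours were mostly not distinguishable. Cps1 ran Targretin, Control, UAB30, MeUAB30 from high to low, and the last step was the called one. Gls2 ran MeUAB30, UAB30, Targretin, Control, with adjusted p-values of 0.13, 0.401 and 0.572 at its 3 steps, although its ends differed by 1.06. Asl ran Control, UAB30, Targretin, MeUAB30, and Arg1 Targretin, UAB30, Control, MeUAB30, with no step called in either. In Aass the order was Targretin, MeUAB30, UAB30, Control, and the step from Targretin to MeUAB30 had an adjusted p of 0.063.

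The genes whose values ran most alike those of each enzyme over the 16 arrays are given as a description, since these arrays share diets and overall brightness. Cps1 ran with Slc38a4, an amino acid transporter (Pearson r = 0.943, Spearman rho = 0.847), and Acox2, a bile acid oxidase of the peroxisome (r = 0.93, rho = 0.568). Gls2 ran with Rnf5, a ubiquitin ligase (r = 0.964), and Tmem176b (r = 0.955). Arg1 ran with Mlx, a partner of glucose-sensing transcription factors (r = 0.936), and Uox, urate oxidase (r = 0.913). Asl ran with Hao2, an oxidase of hydroxy acids (r = 0.923), and with Idi1 of sterol synthesis (r = 0.921). Aass ran with Ehhadh, an enzyme of peroxisomal fatty acid oxidation (r = 0.891), and Rgs5 (r = 0.875). Asns ran with Dbi, which binds acyl-CoA (r = 0.904), and Hadh, of mitochondrial fatty acid oxidation (r = 0.894). Otc ran with Oxr1 (r = 0.924) and St3gal6 (r = 0.89), while Ass1 with Apoe (r = 0.84) and Porcn (r = 0.816), and Glud1 with Slc27a2 (r = 0.836) and Gpat3 (r = 0.832), had weaker likenesses.

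Among 17 partners of the urea cycle (aminotransferases, carriers and transporters), 14 were tested. With MeUAB30 3 rose and 3 fell, with Targretin 2 rose and 1 fell, and with UAB30 limma called 0, with 4 at an unadjusted p under 0.05. Over all genes 9.89%, 2.18% and 0.0823% were called in these diets, and 952 of 12156 had an unadjusted p under 0.05 with UAB30. The medians were -0.04, -0.19 and 0.06, against 0.06, -0.01 and 0.05 over all genes. Both aspartate aminotransferases, which make the aspartate that Ass1 uses, changed with MeUAB30, in opposite directions. The cytosolic Got1 had log2 values of 9.95, 9.88, 9.84 and 9.83 with MeUAB30, against 11.18, 10.39, 10.66 and 10.52 in Control, which lay wholly above them (-0.81, SE 0.16, limma adjusted p = 0.00379). The mitochondrial Got2 had 11.25, 11.42, 11.30 and 11.26 with MeUAB30, against 10.88, 11.01, 10.78 and 10.94 in Control (0.41, adjusted p = 0.0177). It was 11.52, 11.37, 11.33 and 11.37 with Targretin (0.50, adjusted p = 0.013). Without MeUAB30 array 2 the adjusted p of Got2 with MeUAB30 was 0.0662, and without Targretin array 1 that with Targretin was 0.054. In fits of the 2 groups alone they were 0.0627 and 0.161.

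The alanine aminotransferase Gpt rose with MeUAB30 (9.81 ± 0.20 against 8.91 ± 0.28 in Control, SD, n = 4; 0.90, limma adjusted p = 0.00141). It also rose with Targretin (9.51 ± 0.16; 0.60, adjusted p = 0.0491). The mitochondrial Gpt2 fell with Targretin (9.56 ± 0.06 against 10.33 ± 0.30 in Control; -0.78, adjusted p = 0.0294) and was -0.02 with MeUAB30. Each of the Targretin calls of Gpt and Gpt2 was lost on leaving out any of 6 of the 8 arrays: Targretin 1, 3 and 4 with Control 1, 3 and 4 for Gpt (0.118 to 0.166), and with Control 1, 2 and 4 for Gpt2 (0.0576 to 0.112). Rhbg, an ammonia transporter of pericentral hepatocytes, rose with MeUAB30 (0.59, adjusted p = 0.0209), a change that was -0.02 under the stricter brightness filter. It was lost without MeUAB30 array 2 or 3 or Control array 3 or 4 (0.0518 to 0.0845), and without a brightness filter (0.43, adjusted p = 0.0719). Rhbg was as much higher with UAB30, by 0.60 with all arrays above Control, though this did not pass over all genes (adjusted p = 0.245). Between MeUAB30 and UAB30 Rhbg differed by -0.01 (adjusted p = 0.99). The other 2 changes with MeUAB30 were named after their values were seen: Slc25a15, the mitochondrial ornithine carrier (-0.44, adjusted p = 0.0301), and Slc38a3, a glutamine transporter (-0.34, adjusted p = 0.0438). Slc25a15 was lost without MeUAB30 array 1, 2 or 3 or Control array 1 or 4 (0.0521 to 0.104), and Slc38a3 without any of 6 arrays, MeUAB30 2, 3 and 4 and Control 1, 2 and 4 (0.0576 to 0.139). In MeUAB30 against UAB30, Got1 alone of the 14 was called (-0.65, adjusted p = 0.0496), beside 1.39% of all genes. Leaving out any 1 of the 8 arrays took Got1 to 0.0779 or more. Without the 4 arrays that stood apart it was at 0.0784, with no brightness filter at 0.0556 and with the mean of probe sets at 0.0543. In fits of the 2 groups alone, the calls of Rhbg (0.0613), Slc25a15 (0.0769) and Slc38a3 (0.128) with MeUAB30, and of Gpt (0.198) and Gpt2 (0.0574) with Targretin, were lost too. With the mean of probe sets Gpt with Targretin reached 0.0511 and Slc38a3 0.0915, and with no brightness filter Gpt reached 0.0533.

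**Figure D4:**
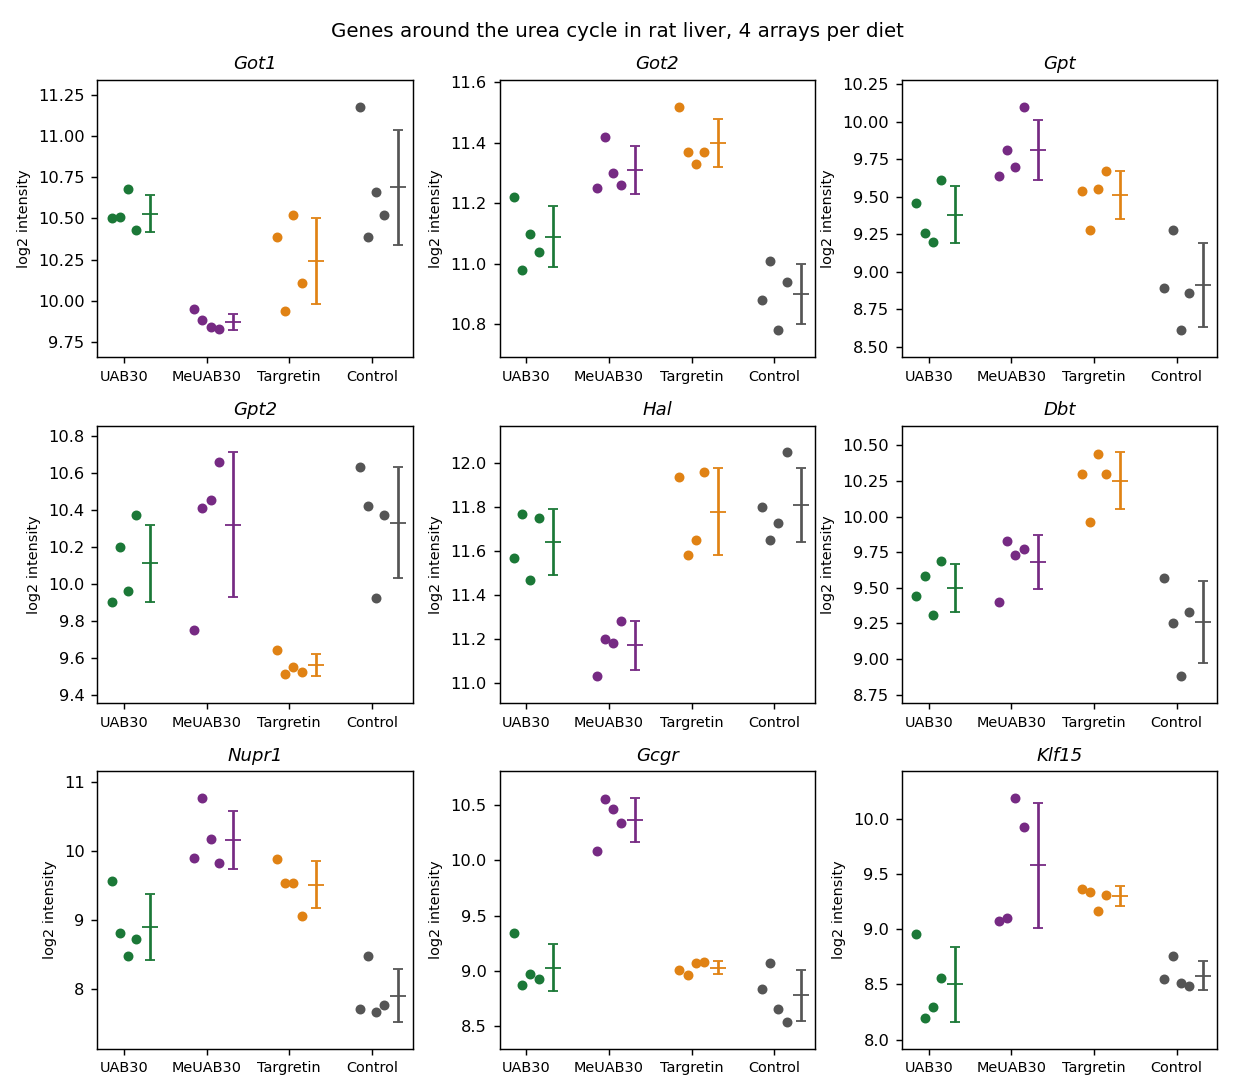
Log2(intensity + 1) on each array of 9 genes from the partner, breakdown, response and regulator lists, by diet in the order UAB30, MeUAB30, Targretin and Control; bars are the group mean with its SD. Gcgr and Nupr1 lie highest with MeUAB30 (means 10.36 and 10.16), and Got1 and Hal lowest (9.87 and 11.17).

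Of 32 genes of amino acid breakdown, 26 were tested. With MeUAB30 5 rose and 3 fell (median 0.21, against 0.06 over all genes), with Targretin 2 rose and 0 fell (0.07 against -0.01), and with UAB30 limma called 0, with 5 at an unadjusted p under 0.05, as for 952 of all 12156 genes. Over all genes 7.88% rose and 2.01% fell with MeUAB30, 1.51% rose and 0.666% fell with Targretin, and 0.0823% were called with UAB30. Ivd, of leucine breakdown, rose with MeUAB30 (10.55 ± 0.09 against 9.98 ± 0.14 in Control, SD, n = 4; 0.57, limma adjusted p = 0.00529). Its arrays also lay wholly above Control with Targretin (0.46, adjusted p = 0.0539) and with UAB30 (0.39, adjusted p = 0.371), without passing. Agxt2, a mitochondrial aminotransferase, rose with MeUAB30 as well (0.62, adjusted p = 0.0106). Hal, which opens histidine breakdown, fell (11.17 ± 0.11 against 11.81 ± 0.17 in Control; -0.63, adjusted p = 0.00469), and so did Csad, of taurine synthesis (-0.96, adjusted p = 0.00853).

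With Targretin, 2 enzymes of the branched-chain amino acids rose. Dbt, the E2 subunit of the branched-chain keto acid dehydrogenase, had log2 values of 10.30, 9.96, 10.44 and 10.30, against 9.57, 9.25, 8.88 and 9.33 in Control, with no overlap (0.99, limma adjusted p = 0.00126). Hibch, of valine breakdown, rose as much (0.99, adjusted p = 0.0319), but its call was lost without Targretin array 1, 3 or 4 or Control array 1 or 3 (0.078 to 0.109). Named after their values were seen, the other called genes with MeUAB30 were Bckdhb (0.74, adjusted p = 0.0157), Hibch (0.86, adjusted p = 0.0282) and Sdsl (0.44, adjusted p = 0.0314), which rose, and Tat, tyrosine aminotransferase, which fell (-0.60, adjusted p = 0.038). All 4 calls were lost on leaving out single arrays. For Bckdhb this was MeUAB30 array 4 (0.0579), and for Hibch MeUAB30 3 and 4 and Control 1 and 3 (0.064 to 0.0973). For Sdsl it was MeUAB30 1, 3 and 4 and Control 1, 2 and 3 (0.0572 to 0.101), and for Tat MeUAB30 1 and 2 and Control 1, 2 and 4 (0.0599 to 0.131). Fits of the 2 groups alone also lost Hibch (0.0512 with MeUAB30 and 0.134 with Targretin), Sdsl (0.0935) and Tat (0.0759). Sdsl was 0.26 with no brightness filter (0.139), 0.35 without the 4 arrays that stood apart (0.0766) and 0.39 with the mean of probe sets (0.0581). Tat had 0.0604 without those 4 arrays and 0.0521 with the mean of probe sets, and Hibch with Targretin 0.0536 with no brightness filter.

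The amino acid response, in which ATF4 raises Asns and related genes when amino acids run short, was followed in 19 tested genes of 20. With MeUAB30 3 rose and 0 fell, with Targretin 2 rose and 1 fell, and with UAB30 limma called 0, with 4 at an unadjusted p under 0.05, as for 952 of all 12156 genes. Over all genes 9.89% were called with MeUAB30, 2.18% with Targretin and 0.0823% with UAB30. Medians were 0.20, -0.03 and 0.14, against 0.06, -0.01 and 0.05 over all genes. Nupr1, a stress-induced nuclear protein, changed most: its log2 values were 9.89, 10.76, 10.17 and 9.83 with MeUAB30 and 9.88, 9.54, 9.54 and 9.06 with Targretin, against 7.72, 8.48, 7.67 and 7.77 in Control. Both diets lay wholly above Control, at 2.25 (limma adjusted p = 3.79e-05) and 1.60 (adjusted p = 0.00145), while UAB30 gave 0.99 (adjusted p = 0.245). The transcription factor Cebpb (0.72, adjusted p = 0.00286) and the amino acid transporter subunit Slc3a2 (0.66, adjusted p = 0.0253) rose with MeUAB30. Slc3a2 was lost without MeUAB30 array 3 or 4 or Control array 1 or 4 (0.066 to 0.0864). With Targretin Atf5, a transcription factor of the same response, fell (-0.93, adjusted p = 0.00372). Psat1, of serine synthesis, rose with Targretin (0.86, adjusted p = 0.0294), but was lost without Targretin array 1, 3 or 4 or Control array 1, 3 or 4 (0.0538 to 0.114). It was 0.59 (adjusted p = 0.228) with no brightness filter and 0.22 (adjusted p = 0.791) with the stricter one, and had 0.165 in a fit of the 2 groups alone.

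In MeUAB30 against UAB30, 2 of the 19 were called higher, beside 0.699% of all genes. Nupr1 differed by 1.26 (limma adjusted p = 0.0167), lost without UAB30 array 2, 3 or 4 or MeUAB30 array 2 or 3 (0.0533 to 0.0672). Cebpb differed by 0.58 (adjusted p = 0.0401), lost without any of 7 arrays, UAB30 2, 3 and 4 and MeUAB30 1 to 4 (0.0827 to 0.161). Without the 4 arrays that stood apart their adjusted p-values were 0.0532 and 0.051.

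Of 12 known regulators of the urea cycle genes, 11 were tested, and 3 rose with MeUAB30, beside 7.88% of all genes. With UAB30 and with Targretin limma called 0 of the 11, beside 0.0823% and 2.18% of all genes, with 3 and 5 at an unadjusted p under 0.05, against 952 and 1326 of 12156. The medians were -0.07 with UAB30, -0.08 with MeUAB30 and -0.11 with Targretin, against 0.05, 0.06 and -0.01 over all genes. Gcgr, the glucagon receptor, through which glucagon raises urea cycle enzymes, had log2 values of 10.08, 10.55, 10.46 and 10.34 with MeUAB30, against 8.84, 9.07, 8.66 and 8.54 in Control. The groups did not overlap, and the change was 2.99-fold (1.58, SE 0.14, limma adjusted p = 2.98e-06). Gcgr was also 1.33 higher than with UAB30 (adjusted p = 3.98e-05), and its changes with UAB30 and Targretin were 0.25 each. Sirt5, a mitochondrial deacylase that acts on Cps1, rose with MeUAB30 (0.84, adjusted p = 0.00473), as did Klf15, a factor of amino acid breakdown (1.0, adjusted p = 0.00764). The Klf15 arrays were uneven with MeUAB30, at 9.08, 9.10, 10.19 and 9.93. With Targretin they read 9.17 to 9.37, wholly above the 8.49 to 8.76 of Control, without passing (0.72, adjusted p = 0.118).

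Klf15 was 1.08 higher with MeUAB30 than with UAB30 (limma adjusted p = 0.0168), lost without UAB30 array 2 or 3 or MeUAB30 array 3 or 4 (0.0587 to 0.0759) or in a fit of the 2 groups alone (0.0697). Ppargc1a, a coactivator of the fasting response, differed by -0.86 in that comparison (adjusted p = 0.0298), lost without UAB30 array 1, 3 or 4 or MeUAB30 array 1, 2 or 3 (0.059 to 0.114) and with the stricter brightness filter (-0.66, adjusted p = 0.093).

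The portal and central zones of the liver lobule carry different nitrogen enzymes, and their markers were read beside these results. Over all genes 7.88% rose and 2.01% fell with MeUAB30, 1.51% rose and 0.666% fell with Targretin, and 0.0823% were called with UAB30. Of 10 periportal markers tested of 10, 1 rose (Cyp2f4) and 1 fell (Hal) with MeUAB30, and their mean level ran from 10.16 to 10.35, against 10.13 to 10.30 in Control. Of 10 pericentral markers tested of 11, 1 rose (Rhbg) and 3 fell (Cyp1a2, Cyp7a1 and Slc1a2) with MeUAB30, and their mean level ran from 9.57 to 10.01, against 9.71 to 10.32 in Control. Cyp1a2 fell by 0.88 on the log2 scale with MeUAB30 (limma adjusted p = 0.000166), but rose by 0.99 with UAB30 (adjusted p = 0.000559), whereas Cyp2e1 passed in none. Of 6 hepatocyte markers tested of 8, 1 (Apob) fell with MeUAB30, at a mean level of 13.37 to 13.45 against 13.45 to 13.54 in Control. Apob, Cyp2f4, Cyp7a1, Slc1a2 and Rgn were named after their values were seen. The Apob call was lost without any array but Control array 3 (adjusted p from 0.0509 to 0.145), and that of Cyp2f4 without MeUAB30 array 2, 3 or 4 or Control array 1, 3 or 4 (0.0939 to 0.141). Fits of the 2 groups alone lost both (0.111 and 0.0516), as well as Rgn with Targretin (0.104), and with no brightness filter Cyp2f4 was 0.32 (0.143). With Targretin 1 of the pericentral markers (Rgn) fell and 0 of the periportal ones were called. Of the periportal ones 2 had an unadjusted p under 0.05, as had 1326 of all 12156 genes.

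Macrophage markers were mostly higher in the diets that held an analog, without passing. Of 13 Kupffer cell and macrophage markers 11 were tested, and limma called 0 with MeUAB30, although 8 had an unadjusted p under 0.05, as had 2818 of all 12156 genes. Over all genes, 59.7% were higher with MeUAB30 and 61.3% with UAB30. With MeUAB30 10 of 11 were higher (median 0.58) at a mean level of 8.57 to 8.85, and with UAB30 11 of 11 (median 0.46) at 8.38 to 9.11. They stood at 7.72 to 8.83 with Targretin (median 0.09), against 7.78 to 8.79 in Control. The defining markers Cd68, Clec4f and Marco were all bright enough to test. In stellate cell markers, 6 tested of 9, the mean level was 7.19 to 7.84 with Targretin (median -0.34), against 7.68 to 8.32 in Control, with 0 called by limma and 2 at an unadjusted p under 0.05. For 4 endothelial markers of 8 and 4 cholangiocyte markers of 6, medians lay between -0.04 and 0.06 in all 3 diets, with 0 called and 0 at an unadjusted p under 0.05. The part of these cell types in the changes of the 9 genes was not tested.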

How the data were processed

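Liver RNA of 16 rat samples (4 per diet, assigned and numbered by their titles) was measured on Affymetrix whole-transcript exon arrays. The authors deposited 1 linear intensity per probe set and array for 887828 probe sets; how probes were summarised, corrected for background and normalized is not given in the sources used here. Per the submitters' processing notes the build was rn4. Exactly 1 symbol was paired with 177688 probe sets (20%) in the platform annotation, several with 2920 and none here with 707220. Symbols were updated through RefSeq (11393 current, 3454 updated, 56 kept). There were 0 columns of other samples. Precision is limited by the number of arrays.

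Intensities were set to log2(intensity + 1), and named probe sets were kept where their mean reached the 75th percentile over the whole array (log2 6.01, intensity 63.6), 103692 in all and 143 of the 154 listed here. Genes were summarised by median polish and fitted by lmFit and eBayes (limma 3.58.1 under R 4.3.3; files read with version 1.17.8 of data.table), 1 mean per diet on all 16 arrays, with 6 contrasts and Benjamini-Hochberg adjustment over 12156 genes. The fit was tested on simulated data.

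The members and lists were chosen with earlier results of these data known. Named genes were the members and, per pathway list, up to 4 called genes with the smallest adjusted p against Control and up to 3 in MeUAB30 against UAB30, the first 3 markers of each marker list, and the 2 genes most alike each member. The marker lists share Hal, Sds, Oat and Rhbg with the pathway lists. Same-numbered arrays did not deviate together (correlations from -0.504 to 0.574), so the numbers were not taken as pairs. Alternatives were another added constant (16), no filter or the 90th percentile, the mean of probe sets, quantile normalization, 2 groups alone, array weights, a replicate block, the intensity range as a covariate, and leaving out arrays.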

Additional observations from a re-analysis of the deposited data

Results flagged for a closer look

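In groups of 4 arrays, 1 array was compared with the 3 others by Dixon's ratio, the gap to the nearest array over the range of the group, against its 95% critical value. Over 116 groups (29 genes in 4 diets) 3 passed it, and chance passes about 1 in 20 groups. None of the 3 belonged to the listed urea cycle and nitrogen enzymes. Ivd stood at 10.24 on UAB30 array 2, with the nearest array at 10.39 (ratio 0.854). Nupr1 stood at 8.48 on Control array 2, with the nearest at 7.77 (ratio 0.869). Slc3a2 stood at 9.68 on Targretin array 2, with the nearest at 10.43 (ratio 0.86), and that array was 1 of the 4 that stood apart from their groups. Gene values are log2(intensity + 1).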

How the results depend on the processing

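With array weights, without the 4 arrays that stood apart and with intensity range added as covariate, limma called more genes: 44, 31 and 106 with UAB30 against Control (10 as reported), 2771, 2446 and 3026 with MeUAB30 (1202), 761, 495 and 1288 with Targretin (265), 1337, 338 and 726 in MeUAB30 against UAB30 (169), and 2127, 1260 and 2259 in Targretin against MeUAB30 (684). In Targretin against UAB30 (150) array weights gave 460 and the covariate 623. Fits of 2 groups alone gave 115 genes with Targretin against Control and 98 against UAB30, with 0 of the 9 enzymes in both. Of the 9, the covariate called 1 with UAB30 (Gls2), 5 with MeUAB30 (Arg1, lower, added to the 4), 3 with Targretin, 3 in MeUAB30 against UAB30, 2 in Targretin against UAB30 and 6 in Targretin against MeUAB30. Array weights called 3 with Targretin, 5 in MeUAB30 against UAB30 and 6 in Targretin against MeUAB30, and quantile normalization 2 with Targretin. With a replicate block, 0 of the 9 were called in MeUAB30 against UAB30, where Cps1 reached an adjusted p of 0.056, and Arg1 in Targretin against MeUAB30 had 0.0516; Gpt and Psat1 with Targretin had 0.0619 and 0.0682, and Slc38a3 and Tat with MeUAB30 0.0689 and 0.0692, and the markers Apob and Cyp2f4 0.0767 and 0.0816. No other printed call of a gene was lost under the block.

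Leaving out 1 array gave 4 to 36 genes with UAB30 against Control, 634 to 1346 with MeUAB30, 172 to 402 with Targretin, 86 to 166 in MeUAB30 against UAB30, 96 to 151 in Targretin against UAB30 and 357 to 667 in Targretin against MeUAB30. The enzymes called were 0 to 1, 3 to 4, 1 to 2, 0 to 1, 0 to 1 and 2 to 4 in the same order. Small values changed sign. Aass with UAB30 (0.01) was -0.01 after quantile normalization, -0.06 without the 4 arrays, 0 with the covariate and from -0.05 to 0.13 on leaving out 1 array. Otc with MeUAB30 (0.06) was -0.03 with array weights, -0.05 without the 4 arrays, -0.03 with the covariate and from -0.04 to 0.11 on leaving out 1 array. Ass1 with Targretin (0.01) was -0.01 with the mean of probe sets, -0.01 after quantile normalization, -0.02 with array weights, -0.02 without the 4 arrays, and from -0.04 to 0.05 on leaving out 1 array. Ass1 in MeUAB30 against UAB30 ran from 0 to 0.09 on leaving out 1 array, and Rhbg with MeUAB30 was -0.02 under the 90th percentile filter, which left no probe set of Asns. The cause of these shifts was not tested. Of the calls with MeUAB30, 79.7% were increases, against 64.4% with array weights, 61.3% without the 4 arrays and 47% with the covariate. The share of increases was 69.4% with Targretin (30.6% with the covariate), 50.7% in Targretin against UAB30 (65.4% without the 4 arrays, 27% with the covariate), 30.6% in Targretin against MeUAB30 (47.4% with array weights, 55% without the 4 arrays) and 50.3% in MeUAB30 against UAB30 (62.9% with array weights). With UAB30 it was 90% (78.6% after quantile normalization, 65.9% with array weights, 51.6% without the 4 arrays, 50% with the covariate). Background correction could not be varied.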

Other observations

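The rest of the lysine route and of the entry to the urea cycle, chosen after the values of Aass and Cps1 were seen, gave no further calls. With Targretin, the diet in which Aass rose, the later lysine enzyme Aldh7a1 averaged 10.90 ± 0.07 against 10.90 ± 0.25 in Control (SD, n = 4). For the other later enzymes the log2 differences were 0.09 for Aadat, 0.11 for Dhtkd1, 0.37 for Gcdh and 0.07 for Pipox. All of these genes had limma adjusted p-values of 0.37 or more. Gcdh had a 95% interval of 0.04 to 0.69 and an unadjusted limma p of 0.0318. Its missed threshold therefore does not show that it stayed at the Control level. With MeUAB30 the same genes differed by 0.38, 0.46, -0.20, 0.43 and 0.48, and the lowest adjusted p was 0.0692, of Pipox.

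Nags, which makes the activator that Cps1 needs, differed by 0.41 with MeUAB30 (adjusted p = 0.152), and Car5a, the mitochondrial carbonic anhydrase that supplies bicarbonate, by -0.43 (adjusted p = 0.17). Car5a averaged 7.42 ± 0.14 with MeUAB30, against 8.12 ± 0.22 with UAB30 (-0.69, adjusted p = 0.081). Hnf4a, a nuclear receptor of hepatocytes, had nearly the same difference from Control in all 3 diets, -0.39 with UAB30, -0.38 with MeUAB30 and -0.37 with Targretin, and passed in none (adjusted p from 0.0748 to 0.428).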
